A study of Mus musculus with 8 samples.

Results

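PRC1.1 is the variant Polycomb repressive complex that contains Pcgf1, and the transcripts of its 9 subunit genes (Pcgf1, Bcor, Bcorl1, Kdm2b, Skp1, Rybp, Yaf2, Ring1 and Rnf2) were followed in mouse haematopoietic stem and progenitor cells (HSPCs) after knockdown of Pcgf1. The 9 genes were chosen by name as the known subunits of the complex, and every array probe whose RefSeq accession belongs to 1 of them was taken. This gave 16 of the 41174 probes and 9 of the 17016 named genes on the array. Bcor and Kdm2b had 3 probes each, Rybp, Ring1 and Rnf2 had 2 each, and the other 4 genes had 1 each.

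Lineage-depleted bone marrow was taken from 4 Runx1 Δ/Δ mice, whose strain the labels give as mixed C57Bl/6 and 129SvJ. The cells were kept for 2 days with 10 ng/ml IL-3, 100 ng/ml IL-11, 50 ng/ml SCF and Flt3 ligand at 100 ng/ml. From each mouse 1 culture received a retroviral Pcgf1 shRNA and 1 culture a control shRNA (4 arrays per group), and puromycin at 5 µg/ml was given for 36 h from 24 h after transduction. Both groups therefore carry the Runx1 deletion and the puromycin treatment, and no culture with intact Runx1 is part of the comparison. The labels describe 1 shRNA against Pcgf1, so effects of the loss of Pcgf1 and of that hairpin on other transcripts cannot be told apart. The ages of the mice and the means by which Runx1 was deleted are not given in the sources used here. The comparison asks how the transcripts of the other subunits stand when 1 subunit is reduced in this background.

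Polycomb repressive complex 1 places ubiquitin on histone H2A through a catalytic pair, a RING1 protein (Ring1 or Rnf2) bound to 1 of the PCGF proteins, and the PCGF protein decides which further subunits join. In PRC1.1 Pcgf1 binds Bcor or Bcorl1, which link it to Kdm2b and Skp1. Kdm2b carries a zinc finger that binds unmethylated CG dinucleotides and brings the complex to CpG islands, while Rybp or Yaf2 occupies the place that CBX proteins take in canonical PRC1 and stimulates ubiquitination. In human leukaemia BCOR and BCORL1 are recurrently mutated, often together with RUNX1.

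Every probe was read as the log2 of its processed signal after each array was shifted so that its 75th percentile lay at 0. Levels are comparable between arrays for 1 probe, not between probes. The arrays had 54.8% to 62.0% of spots clearly over background and 0 saturated spots, with 75th percentiles of 519 to 854 signal units. The number of arrays limits the precision. Mouse 4 stood apart from the other mice along principal component 1, which held 38.4% of the variance, with scores of 41.2 with the Pcgf1 shRNA and 50.3 with the control shRNA, against -35.0 to 4.75 for the other 6 arrays. All 12 HSPC marker genes, among them Kit, Cd34 and Flt3, were measured above background in at least 1 group. Of 14 markers of maturing neutrophils on the array 12 were tested, and 3 fell and 0 rose with the Pcgf1 shRNA. The block on mouse gave 9 that fell and 1 that rose. Over all tested probes 0.163% fell and 0.466% rose without a block, and 2.27% and 2.70% with it. Fpr2 and Fpr1 fell by 1.79 and 2.53 on the log2 scale (limma adjusted p 0.0276 and 0.0492), Ngp (0.0298) was not well above background on any Pcgf1 shRNA array, and Mmp9 and Retnlg were at background on every array. The summed signal of the 12 tested neutrophil markers, in units of the array's 75th percentile, was 50.3 to 141 with the Pcgf1 shRNA and 167 to 425 with the control shRNA. Such a sum follows its brightest probes, here Chil3 and S100a9 (mean log2 signal 7.05 and 6.66 with the control shRNA). Neither passed without a block (limma adjusted p 0.411 and 0.0717), and both fell with mouse as a block (0.0197 and 0.0207). Of 8 mast cell and basophil markers 2 fell (Tph1 at -1.37 and Tpsb2 at -1.71, adjusted p 0.0230 and 0.0492), and 4 fell with the block. The list was not uniform: 6 of the 8 lay below 0 and 2 above it, among them the basophil protease gene Mcpt8 at 0.59 (adjusted p 0.301). The summed signals of the 8 were 25.6 to 40.0 and 35.4 to 56.1 for the Pcgf1 and control shRNA. The HSPC marker Cd34 rose by 0.94 (adjusted p 0.0267). Of 10 monocyte and macrophage markers and 10 erythroid markers 0 passed without a block, and 4 and 3 fell with it. Among the markers tested for eosinophils (4), megakaryocytes (5), B cells (4), T and NK cells (3) and stroma and endothelium (2), 1 passed without a block, the T cell kinase gene Lck (0.91, adjusted p 0.0367), while Ebf1, Pax5, Cd3g, Cd3d, Ncr1 and Cdh5 were at background on every array. With the block the eosinophil genes Prg2 (-1.87) and Prg3 (-1.70) fell and Il5ra (0.51) rose (adjusted p 0.0344, 0.0197 and 0.0473), the eosinophil median was -1.48, and Pecam1 rose by 0.51 (0.0310). The part of these shifts in the changes of the PRC1.1 genes was not tested. In a mixed culture fewer cells of a type and less RNA per cell cannot be told apart.

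Knockdown lowered Pcgf1 itself, while 11 of the 15 probes of the other subunits lay above 0, or 10 of 14 without the dim Kdm2b probe 3, where 51.9% of all tested probes did. Bcorl1 rose 1.42-fold and was the only other member to pass the test without a block. Bcor stood at 1.30-fold, 0.90-fold and 1.28-fold on its 3 probes, and none passed without a block (adjusted p 0.0977, 0.511 and 0.234). With mouse as a block the first passed (0.0432), but not without any 1 of the 4 mice. Kdm2b probes 1 and 2 and both Rnf2 probes lay 1.14-fold to 1.31-fold higher, Skp1 and Yaf2 1.16-fold and 1.11-fold higher, Rybp at 1.04-fold and 0.97-fold, and Ring1 at 0.86-fold and 0.98-fold, and none of these passed.

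**Figure D1:**
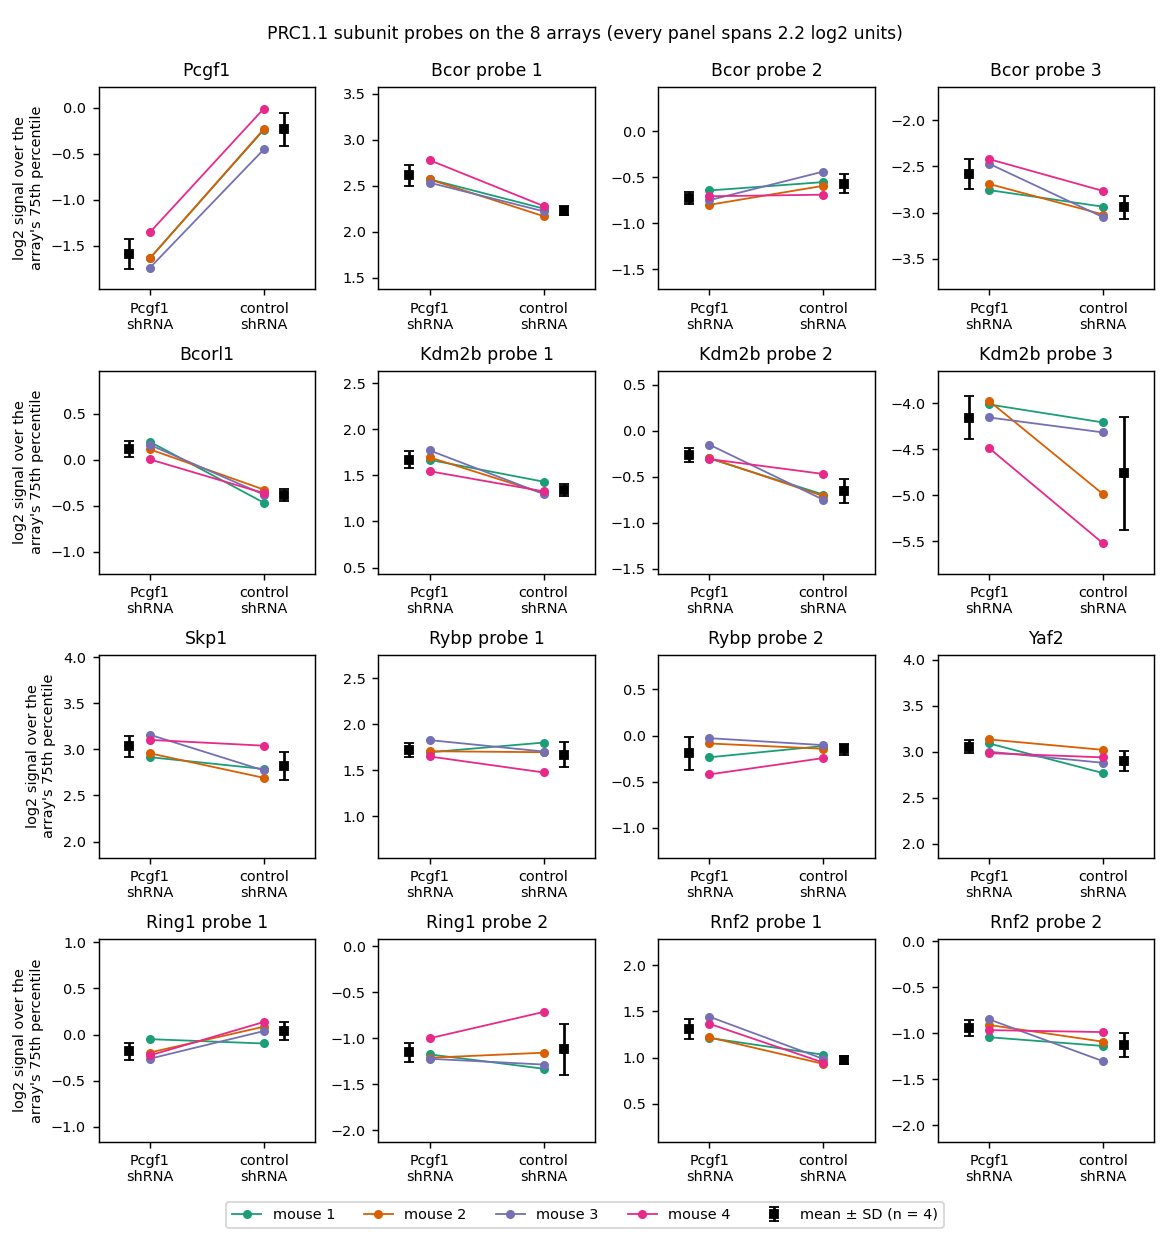
Log2 signal of each PRC1.1 subunit probe relative to the 75th percentile of its array (vertical axis, of equal span in every panel) with the Pcgf1 shRNA (left) and the control shRNA (right); a line joins both cultures of a mouse, and squares give mean ± SD (n = 4). Pcgf1 falls by a similar step in every mouse, Bcorl1 lies above its controls in every mouse, and Bcor probe 2 moves against Bcor probes 1 and 3.

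Pcgf1, the RING finger subunit that gives the complex its identity (chromosome 6, 83077552 to 83080855, GRCm38.p6), is read by 1 probe for NM_197992. Its log2 signal was -1.63, -1.64, -1.74 and -1.35 with the Pcgf1 shRNA in mice 1 to 4, against -0.24, -0.23, -0.45 and -0.01 with the control shRNA. Each knockdown array lay below each control array, and the probe was well above background on all 8, so the transcript was reduced but still measured. By the processed signal of this probe 38.1%, 37.8%, 41.0% and 39.4% of the control of the same mouse was left. The within-mouse differences had an SD of 0.05 on the log2 scale, while the control cultures of the 4 mice spanned 0.44. The log2 change was -1.36 (SE 0.12, limma adjusted p 0.0188) and was past the threshold with mouse as a block too (adjusted p 0.0136). The changes within the slides of mice 1 and 2 and of mice 3 and 4 were -1.40 and -1.31 (adjusted p 0.130 and 1). The call was lost when mouse 1, 2 or 3 was left out (adjusted p 0.104, 0.348 and 0.0874) or when dim probes were not filtered out (0.0755), while the change without 1 mouse stayed between -1.38 and -1.34. With mouse as a block it was lost without mouse 2 (0.0827). Under normexp background correction the log2 change was smaller, at -1.09 (limma adjusted p 0.0118), so the share left depends on the background correction.

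Bcorl1 and Bcor are corepressor paralogues that dock on the same surface of Pcgf1. Bcorl1 (chromosome X, 48341358 to 48408068) is read by 1 probe for NM_178782. Its log2 signal was 0.20, 0.11, 0.16 and 0.01 with the Pcgf1 shRNA in mice 1 to 4, against -0.46, -0.32, -0.38 and -0.36 with the control shRNA. The groups did not overlap, and the lowest knockdown value, that of mouse 4, stood clear of the highest control value, that of mouse 2. The means were 0.12 ± 0.08 with the Pcgf1 shRNA and -0.38 ± 0.06 with the control shRNA (SD, n = 4 each). The log2 change was 0.50 (SE 0.08, limma adjusted p 0.0374), and the exact two-sided permutation test of 4 against 4 arrays gave p = 0.0286, the smallest it allows. The change stayed between 0.41 and 0.55 under every alternative, with 0.55 and 0.45 within the slides of mice 1 and 2 and of mice 3 and 4 (adjusted p 0.190 and 1), but the call was lost with normexp background correction (adjusted p 0.0743), with no filter on dim probes (0.168) and without mouse 1, 2 or 3 (0.217, 0.397 and 0.314). With mouse as a block it was lost whichever mouse was left out (0.0620 to 0.138).

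Bcor (chromosome X, 12036737 to 12160516) is read by 3 probes, numbered here by falling signal. Probe 1 (A_51_P183630) and probe 3 (A_52_P160121) are assigned to transcript NM_029510, and probe 2 (A_51_P503786) to NM_175046. Probe 1 read 2.57, 2.57, 2.53 and 2.78 with the Pcgf1 shRNA in mice 1 to 4, against 2.25, 2.17, 2.22 and 2.28 with the control shRNA. Probe 3 read -2.76, -2.69, -2.47 and -2.42 with the Pcgf1 shRNA, against -2.94, -3.02, -3.05 and -2.77 with the control shRNA. On both probes the 4 knockdown arrays lay above the 4 control arrays, although on probe 3 the lowest knockdown value, in mouse 1, was only just above the control of mouse 4. The log2 changes were 0.38 (SE 0.08, limma adjusted p 0.0977, blocked on mouse 0.0432) and 0.36 (SE 0.11, adjusted p 0.234). The blocked call on probe 1 was lost without any 1 of the 4 mice (adjusted p 0.0820 to 0.212).

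Bcor probe 2 went the other way. It read -0.64, -0.80, -0.75 and -0.71 with the Pcgf1 shRNA in mice 1 to 4, against -0.55, -0.59, -0.44 and -0.69 with the control shRNA. It was lower in 4 of 4 mice, but by only 0.02 in mouse 4, and the groups overlapped (log2 change -0.16, SE 0.08, adjusted p 0.511). That Bcor probes differ was known from an earlier analysis of these arrays, and the difference was measured here as a within-array ratio. Probe 1 over probe 2 changed by 0.54 on the log2 scale, with 0.41, 0.61, 0.62 and 0.51 in mice 1 to 4 and a 95% interval of 0.38 to 0.69. Probe 2 against probe 3 stood at -0.52 (95% interval -0.95 to -0.08), and probe 1 against probe 3 at 0.02 (-0.29 to 0.34). The changes of both NM_029510 probes lay closer to each other than to that of the NM_175046 probe, and no difference between Bcor probes passed the test over all pairs described further on. Where the probes lie along the gene was not analysed here.

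The promoters of Bcorl1 and Bcor, the 2 paralogues on the X chromosome, are shown with the promoter window of Kdm2b that holds the most CG dinucleotides among the members, because Kdm2b binds unmethylated CG. Each is the RefSeq window of 250 bases before to 50 bases after a transcript start in GRCm38.p6, written 5′ to 3′ along the gene, with every CG in capitals (a CG reads the same on both strands).
Bcorl1 (chrX:48341108-48341407, plus strand): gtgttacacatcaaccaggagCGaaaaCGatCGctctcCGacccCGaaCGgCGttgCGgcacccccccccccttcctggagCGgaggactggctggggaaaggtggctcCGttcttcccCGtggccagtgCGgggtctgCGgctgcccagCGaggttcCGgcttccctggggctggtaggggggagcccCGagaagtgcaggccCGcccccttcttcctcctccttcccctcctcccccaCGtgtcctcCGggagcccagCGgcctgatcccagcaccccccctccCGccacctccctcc
Bcor (chrX:12160297-12160596, minus strand): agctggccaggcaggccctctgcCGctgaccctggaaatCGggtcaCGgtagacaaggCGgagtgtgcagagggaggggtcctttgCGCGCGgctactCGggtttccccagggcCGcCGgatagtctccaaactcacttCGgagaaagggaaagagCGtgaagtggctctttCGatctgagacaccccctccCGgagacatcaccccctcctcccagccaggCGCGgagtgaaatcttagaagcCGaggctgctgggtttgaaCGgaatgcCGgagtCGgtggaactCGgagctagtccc
Kdm2b (chr5:122900301-122900600, minus strand): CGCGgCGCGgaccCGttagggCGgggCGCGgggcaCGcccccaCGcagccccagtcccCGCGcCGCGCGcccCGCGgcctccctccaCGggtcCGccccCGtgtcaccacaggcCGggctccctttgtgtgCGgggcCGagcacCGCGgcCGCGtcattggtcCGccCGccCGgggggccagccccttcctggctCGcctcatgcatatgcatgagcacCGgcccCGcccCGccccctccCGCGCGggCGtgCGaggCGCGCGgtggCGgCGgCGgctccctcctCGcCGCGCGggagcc

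The Bcorl1 and Bcor windows hold 21 CG each, a number that 24.8% of all 32851 RefSeq promoter windows reach. Of the 9 genes 6 had at least 1 window, 10 windows in all and some of them overlapping, with 18 to 49 CG and a median of 29, against a median of 7 over all windows. The Kdm2b windows fall into 2 places in the gene, and those at the downstream place hold 47 and 49 CG, a number that 1.44% and 1.02% of all windows reach, against 18 and 28 at the upstream place. The letters TGTGGT, the core that RUNX proteins bind, were found on either strand in 2 of the 10 windows, both the overlapping downstream windows of Kdm2b, and in 16.8% of all windows. TATAAA was found in 1 of the 10, that of Skp1, and in 13.6% of all windows. These are counts of letters and show no binding.

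**Figure D2:**
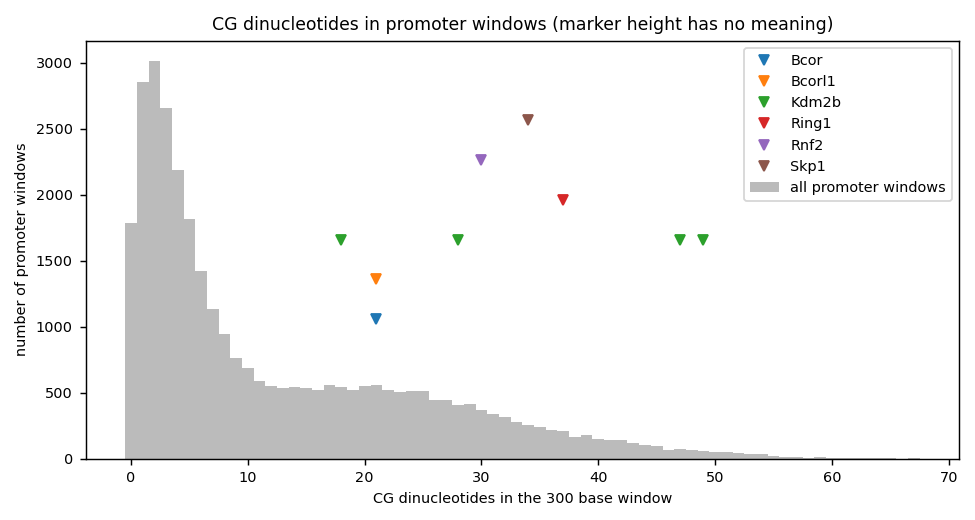
Number of CG dinucleotides in RefSeq promoter windows of 300 bases (horizontal axis) and number of windows with that count (vertical axis); triangles mark the windows of 6 PRC1.1 genes, and their height has no meaning. The member windows lie between 18 and 49 CG, to the right of the median of 7 over all windows.

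Kdm2b, the subunit with the CG-binding zinc finger and a demethylase domain (chromosome 5, 122870664 to 122989270), is read by 3 probes, all assigned to NM_001003953. Probe 1 (A_52_P24648) read 1.67, 1.70, 1.77 and 1.55 with the Pcgf1 shRNA in mice 1 to 4, against 1.43, 1.31, 1.30 and 1.33 with the control shRNA. Probe 2 (A_51_P404953) read -0.30, -0.30, -0.15 and -0.31 with the Pcgf1 shRNA, against -0.69, -0.71, -0.75 and -0.47 with the control shRNA. Neither probe had overlapping groups, and their changes were 0.33 (SE 0.08) and 0.39 (SE 0.09), yet neither passed (limma adjusted p 0.132 and 0.111, blocked on mouse 0.0695 and 0.0665). Without mouse 4, in which the difference on probe 2 was smallest (0.16), probe 2 stood at 0.47 with an adjusted p of 0.0447 (blocked on mouse 0.0713), and without mice 1, 2 and 3 the adjusted p was 0.375, 0.703 and 0.647. Probe 3 (A_51_P139597) is dim. It read -4.01, -3.98, -4.16 and -4.49 with the Pcgf1 shRNA, against -4.21, -4.99, -4.32 and -5.52 with the control shRNA, was well above background on 4 of 4 knockdown and 2 of 4 control arrays, and so entered the test through the group in which it is higher. Its change of 0.60 (SE 0.28) was 0.00 with normexp background correction.

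Skp1 (chromosome 11, 52230522 to 52246858), an adaptor that also serves the SCF ubiquitin ligases, read 2.92, 2.96, 3.16 and 3.10 with the Pcgf1 shRNA in mice 1 to 4, against 2.79, 2.69, 2.77 and 3.04 with the control shRNA. The control of mouse 4 reached into the range of the knockdown arrays. The log2 change was 0.21 (95% interval -0.02 to 0.45, blocked on mouse 0.01 to 0.41), and it passed neither way (limma adjusted p 0.469, blocked on mouse 0.198).

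Rybp and Yaf2 are the paralogues that bind ubiquitinated H2A beside the catalytic pair. Rybp (chromosome 6, 100228565 to 100287358) read 1.69, 1.71, 1.83 and 1.65 with the Pcgf1 shRNA on its brighter probe (A_52_P426692), against 1.80, 1.69, 1.70 and 1.47 with the control shRNA. Its second probe (A_51_P279505) read -0.24, -0.09, -0.03 and -0.42 with the Pcgf1 shRNA, against -0.11, -0.14, -0.10 and -0.24 with the control shRNA. The groups overlapped on both, with changes of 0.05 (95% interval -0.16 to 0.26) and -0.04 (-0.27 to 0.19), so changes of up to about 0.27 in either direction lie within the intervals. Yaf2 (chromosome 15, 93283833 to 93336935) read 3.09, 3.13, 3.00 and 2.98 with the Pcgf1 shRNA, against 2.77, 3.02, 2.88 and 2.94 with the control shRNA. It was higher in 4 of 4 mice, by 0.32 in mouse 1 and by 0.05 to 0.12 in the others, and its change of 0.15 had an interval of -0.04 to 0.34.

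Ring1 and Rnf2 are the alternative catalytic subunits shared by all PRC1 complexes. Rnf2 (chromosome 1, 151469398 to 151500991) read 1.21, 1.22, 1.44 and 1.37 with the Pcgf1 shRNA on its brighter probe (A_51_P382253), against 1.03, 0.93, 0.98 and 0.95 with the control shRNA. Its second probe (A_52_P149743) read -1.04, -0.91, -0.85 and -0.97 with the Pcgf1 shRNA, against -1.14, -1.09, -1.30 and -0.99 with the control shRNA. The groups were apart on the brighter probe (change 0.34, SE 0.08, limma adjusted p 0.135) and overlapped on the second (0.19, adjusted p 0.470), and both were higher in 4 of 4 mice.

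Ring1 (chromosome 17, 34020792 to 34024680) was the gene whose brighter probe (A_52_P41728) stood lowest after that of Pcgf1. It read -0.05, -0.20, -0.26 and -0.23 with the Pcgf1 shRNA in mice 1 to 4, against -0.10, 0.08, 0.04 and 0.14 with the control shRNA. It was lower in mice 2, 3 and 4 and slightly higher in mouse 1 (change -0.22, SE 0.09, limma adjusted p 0.349). The second probe (A_51_P455266) read -1.17, -1.21, -1.22 and -0.9998 with the Pcgf1 shRNA, against -1.33, -1.16, -1.29 and -0.71 with the control shRNA. It was lower in 2 of 4 mice, and both of its mouse 4 arrays stood above those of the other mice (change -0.03, 95% interval -0.35 to 0.29).

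**Figure D3:**
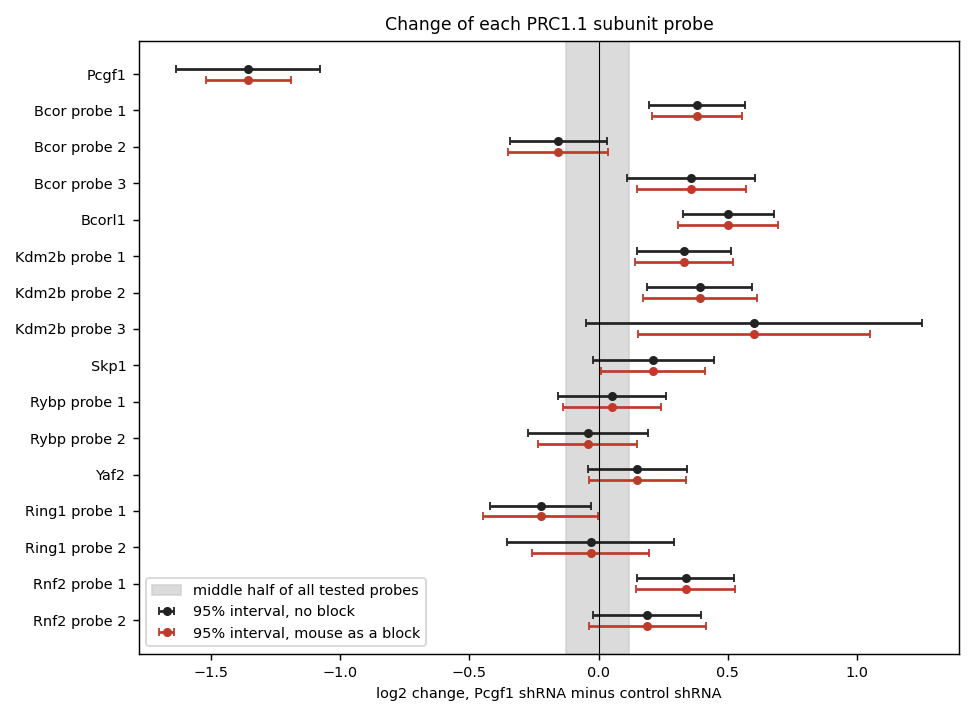
Log2 change of each PRC1.1 subunit probe, Pcgf1 shRNA minus control shRNA (horizontal axis), with 95% intervals of the limma fit without a block (black) and with mouse as a block (red), n = 4 arrays per group; the grey band runs between the quartiles of all tested probes (-0.13 to 0.12). Pcgf1 stands farthest to the left at -1.36, and Ring1 probe 1 (-0.22) and Bcor probe 2 (-0.16) also lie left of the band. The probes of Bcorl1, Kdm2b, Rnf2, Skp1 and Yaf2, with Bcor probes 1 and 3, lie to its right.

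All 16 probes entered the test among 22736 probes. Among them 1 passed as higher (Bcorl1) and 1 as lower (Pcgf1, the target), where 0.466% and 0.163% of all tested probes passed as higher and lower. With mouse as a block 2 passed as higher (Bcorl1 and Bcor probe 1) and 1 as lower, where 2.70% and 2.27% of all probes did. Of the 15 probes other than that of Pcgf1, 6 had groups that did not overlap with the knockdown higher and 0 with it lower, against 4.27% and 2.82% of all probes. In 4 of 4 mice 10 of the 15 were higher and 1 was lower, against 15.6% of all probes in each direction, and without the dim Kdm2b probe 3 it was 9 of 14 that were higher. The 15 probes are not independent, since 5 genes have more than 1. Their median change was 0.21, or 0.20 without Kdm2b probe 3, beside 0.01 over all tested probes.

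The median was above 0 in each mouse. The median within-mouse difference of the 15 probes was 0.18, 0.27, 0.31 and 0.16 in mice 1 to 4, beside 0.03, 0.02, 0.03 and -0.04 over all probes, and 12, 12, 13 and 11 of the 15 were above 0. Mouse 3 gave the highest difference for Kdm2b probes 1 and 2, Skp1, Bcor probe 3 and both Rnf2 probes. Mouse 1 gave the highest for Bcorl1 (0.66) and Yaf2 (0.32), and mouse 4 the highest for Bcor probe 1 (0.50).

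**Figure D4:**
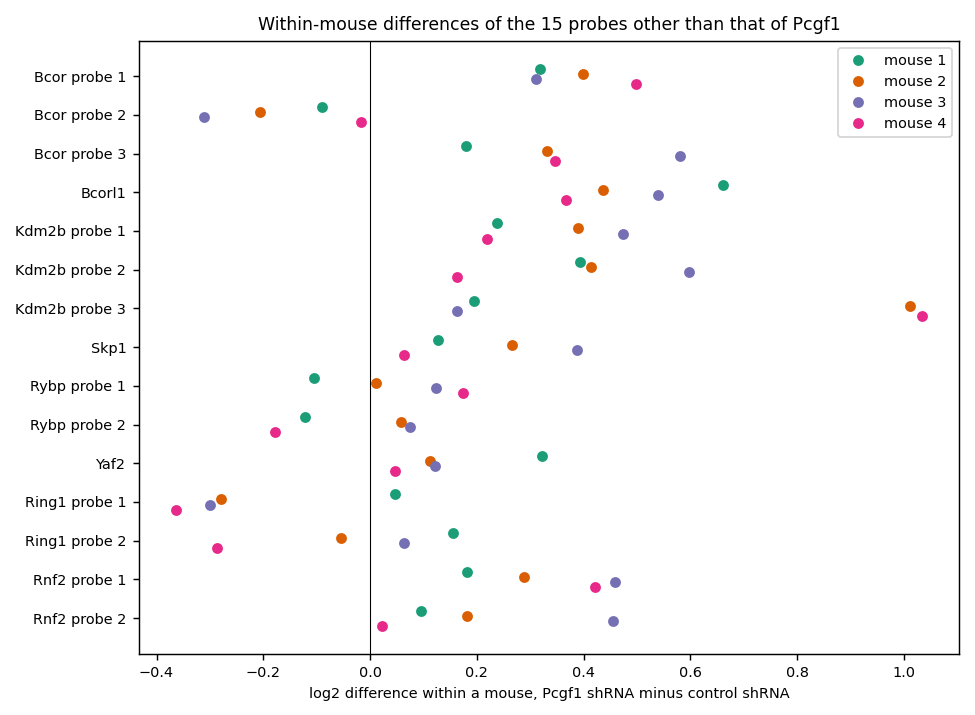
Log2 difference between both cultures of a mouse, Pcgf1 shRNA minus control shRNA (horizontal axis), for the 15 probes other than that of Pcgf1, with 1 point per mouse. All 4 mice lie above 0 for 10 probes and below 0 for Bcor probe 2, while both Rybp probes and both Ring1 probes have mice on either side.

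Unequal change was tested for 12 pairs by the exact two-sided permutation test on within-array ratios, 9 pairs of probes of the same gene and 3 pairs of paralogues on their brightest probes. The 95% intervals of the pair differences are t intervals over the 4 within-mouse differences. They use the pairing by mouse and are not adjusted for the number of pairs, while the exact test does not use the pairing. After Benjamini-Hochberg adjustment over the 12 pairs 0 passed, with a lowest adjusted p of 0.171. The smallest p this exact test allows is 0.0286, so at least 7 of the 12 pairs would have to reach it for any to pass, and 2 did. Of these, Bcor probe 1 against probe 2 had been seen to differ on the same arrays before, so its values are a description and its p is no support. The other was Rnf2 against Ring1. Rnf2 changed by 0.56 more than Ring1 on the log2 scale (95% interval 0.08 to 1.04). The values were 0.13, 0.57, 0.76 and 0.78 in mice 1 to 4. The signal ratio of their brightest probes was thus higher in 4 of 4 knockdown cultures. The second probes of both genes were not tested as a pair. They changed by 0.19 (Rnf2) and -0.03 (Ring1), and in mouse 1 the order was reversed, with 0.09 and 0.16. Bcorl1 and Bcor probe 1 differed by 0.12 (-0.21 to 0.45) and Yaf2 and Rybp by 0.10 (-0.28 to 0.48), intervals that include both no difference and a difference of 0.45 in favour of the first. Bcorl1 is therefore not shown to have changed more than Bcor probe 1. Bcorl1 (0.50) was not tested against Bcor probe 2, which changed by -0.16.

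**Figure D5:**
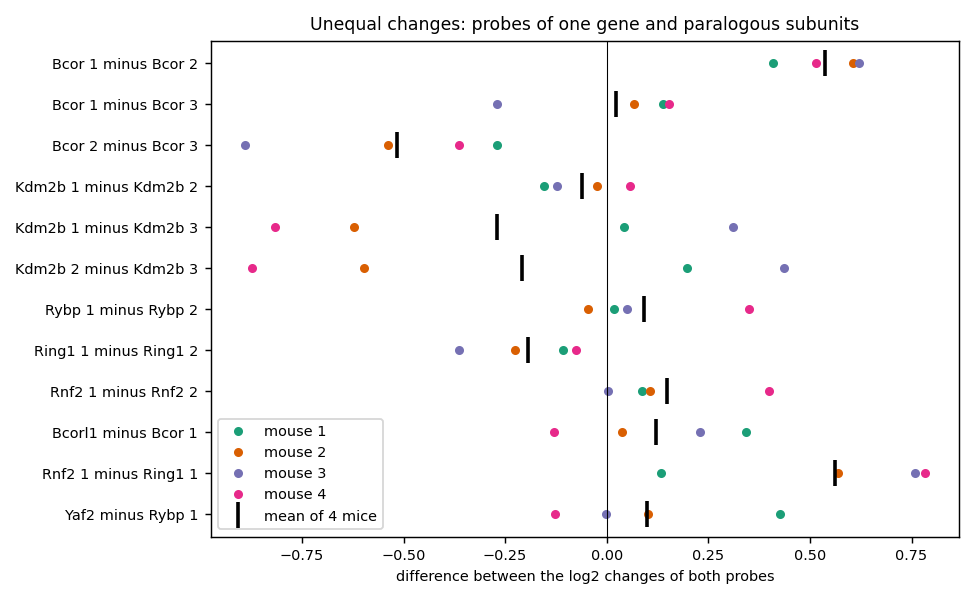
Difference between the log2 changes of both probes of a pair (horizontal axis) for 9 pairs of probes of the same gene and 3 pairs of paralogues, with 1 point per mouse and a bar at the mean of the 4 mice. Bcor probe 1 against probe 2, Rnf2 against Ring1 and Rnf2 probe 1 against probe 2 lie above 0 in every mouse. Bcor probe 2 against probe 3 and Ring1 probe 1 against probe 2 lie below 0 in every mouse, and pairs with Kdm2b probe 3 spread over both sides.

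Other Polycomb genes were taken as lists with 1 brightest probe per gene. They gave 0 calls among 52 genes of 6 lists without a block (limma, adjusted over all probes). Over all tested probes 0.466% passed as higher and 0.163% as lower, so 0 of 52 lies near those shares. Of the 52 genes 10 had an unadjusted p under 0.05, as did 12.1% of all tested probes. Changes above 0 were seen for 51.9% of all tested probes. The 5 other PCGF genes, which define the other PRC1 complexes, lay above 0 without exception at a median of 0.25, with Pcgf6 at 0.33 (adjusted p 0.341), Pcgf2 at 0.31 and Pcgf3 at 0.23. Of 9 canonical PRC1 genes 8 lay above 0 (median 0.26), with the SAM domain protein gene Scmh1 at 0.40 (adjusted p 0.0977), Cbx8 at 0.57 (0.284) on a dim probe and Cbx6 at 0.26. The 8 genes of other variant PRC1 complexes all lay above 0, at a median of 0.07. Wdr5 stood at 0.14, E2f6 at 0.12 and Dcaf7 at 0.13. The 11 PRC2 genes, which methylate histone H3, had a median of 0.06 with 6 above and 5 below 0, among them Jarid2 at -0.34 (adjusted p 0.111), Phf19 at 0.31 and Mtf2 at 0.22. Of 10 genes for partners of PRC1.1 subunits outside the complex 6 lay above 0 and 4 below. Bcl6, a transcriptional repressor that recruits Bcor, stood lowest at -0.65 (adjusted p 0.304, blocked on mouse 0.0351). Fbxo11 (0.13) and Kdm2a (0.11), the paralogue of Kdm2b, were near the list median of 0.09. Of 9 genes for enzymes and cofactors that remove ubiquitin from H2A 8 lay above 0, with a list median of 0.05. Usp16 stood at -0.26 (adjusted p 0.202), Foxk2 at 0.09 and Asxl2 at 0.11.

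The genes whose signal was most like that of Pcgf1 and Bcorl1 over the 8 arrays were ranked by Pearson's r among 11713 named genes, as a description in which the difference between the groups is part of the pattern. The highest r with Pcgf1 were those of Gripap1 (0.97, log2 change -0.15), the splicing factor gene Prpf18 (0.97, -0.78), the lipid phosphatase gene Plpp1 (0.97, -1.46) and Zrsr1 (0.97, -0.25), and Prpf18 and Plpp1 fell (limma adjusted p 0.0228 and 0.0230). The most negative were Fgd1 (-0.99, log2 change 1.34), Il12a, which encodes a subunit of interleukin 12 (-0.99, 0.60), Cldn12 (-0.98, 0.67) and Nhsl1 (-0.98, 0.83), and all 4 rose (adjusted p 0.0228 to 0.0267). For Bcorl1 the highest were Selenom (0.98, log2 change 0.96), Epop, whose product joins PRC2 to elongin BC (0.98, 1.06), the nuclear receptor gene Nr2f6 (0.98, 0.41) and Srd5a1 (0.97, 0.44), of which without a block Selenom and Epop rose (adjusted p 0.0230 and 0.0228) and with the block Nr2f6 did too (0.0498). Its most negative were Jarid2 (-0.97, log2 change -0.34), Pcgf1 itself (-0.97), Plagl2 (-0.97, -0.71) and Klhl20 (-0.96, -0.35), and of Jarid2, Plagl2 and Klhl20 none passed without a block, while Plagl2 did with mouse as a block (adjusted p 0.0279).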

How the data were processed

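RNA from 8 cultures (400 ng each) was hybridised to one-colour Agilent arrays, 1 array per culture. The deposited spot files hold processed intensity values, which per the file headers came from Agilent Feature Extraction 10.1 with its background subtraction. The deposited value table holds log2 values from the authors, and a comparison with the spot files showed them centred on each probe's median over the 8 arrays (slopes at least 0.9999, every probe median 0 within 1e-06). Its columns have medians of 0.10, -0.05, -0.11 and -0.20 for the Pcgf1 shRNA in mice 1 to 4 and 0.05, 0.11, 0.10 and -0.13 for the control shRNA. It served as an alternative, as did normexp correction (offset 50) of the median spot and background intensities.

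Control, non-uniform and outlier spots were left out, the log2 intensity was shifted by each array's 75th percentile, and spots of a probe were averaged. A probe was tested when well above background on all 4 arrays of a group (22736 probes). Accessions were named through RefSeq GRCm38.p6, which gave 24375 of 41174 probes a gene. Tests used limma 3.58.1 in R 4.3.3 (lmFit, eBayes, Benjamini-Hochberg over all tested probes, adjusted p 0.05). The same steps were also run on simulated data, and the outcome is not given here. Mice pair the cultures, since both cultures of a number come from the same animal per the labels. Cultures of the same mouse deviated together (r 0.41, 0.47, 0.41 and 0.65, each above the best r with another mouse), and mouse as a block was an alternative. Slide and scan coincide: 1 slide carried all arrays of mice 1 and 2, its partner those of mice 3 and 4, so each held both groups.

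Named genes were all member probes, the 3 genes of each other list with the smallest p (of the marker lists, mainly those that passed), and the 4 genes most like and most unlike Pcgf1 and Bcorl1. The members and lists were chosen with earlier results of these data known.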

Additional observations from a re-analysis of the deposited data

Results flagged for a closer look

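In 2 of 32 sets of 4 arrays, each a probe in 1 group, a single array stood apart from the other 3 by Dixon's test. Chance gives about 1 in 20. Bcor probe 1 read 2.78 with the Pcgf1 shRNA in mouse 4, against 2.53 to 2.57 in the other 3 mice. Kdm2b probe 2 read -0.15 with the Pcgf1 shRNA in mouse 3, against -0.31 to -0.30 in the other 3 mice. Both lie on the side away from the control shRNA arrays.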

How the results depend on the processing

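Over all probes 143 passed, and 1130 with mouse as a replicate block (615 higher and 515 lower, against 106 and 37), 78 with normexp (50 higher, 28 lower), 3 with no filter on dim probes (1 higher, 2 lower; 2893 at an unadjusted p under 0.05) and 0 within slide 1 or slide 2 (limma; 2966 and 829 unadjusted). Without 1 mouse 0 to 369 passed, and with the block 519, 0, 413 and 132 without mice 1, 2, 3 and 4. Of the member probes 2 passed, 3 with the block, 1 with normexp, 0 with no filter, 0 within either slide and 0 to 3 without 1 mouse. Slide as a block, quantile normalization, the authors' deposited table, 1 probe per gene and probes above background on all arrays gave 119 to 178 probes and 2 member probes each. No pair difference passed under any alternative, but the sign-change test on 4 mice and the test without 1 mouse cannot go below 0.125 and 0.1, so neither could have passed. Changes near 0 turned sign: Rybp probe 1 to -0.047 and Ring1 probe 2 to 0.050 within slide 1, and without 1 mouse, blocked or not, Rybp probe 2 ranged from -0.081 to 0.0034 and Ring1 probe 2 from -0.093 to 0.054. The difference of Bcor probes 1 and 3 was -0.031 after quantile normalization and -0.022 to 0.12 without 1 mouse. The differences of Kdm2b probes 1 and 2 from probe 3 were 0.25 and 0.32 with normexp, probe 2 against 3 ranging from -0.42 to 0.011 without 1 mouse, and Yaf2 minus Rybp ranged from -0.0093 to 0.18. The causes were not tested. Kdm2b probe 3 lies near background, which limits its values.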
